A study of Mus musculus with 2 samples.

Results

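RNA polymerase II (Pol2) ChIA-PET ligates Pol2-bound DNA that was in proximity in the nucleus. Each paired-end tag (PET) linking 2 Pol2 peaks is counted as 1 contact, and the peaks at its ends are called anchors. The regions described here were the anchors detected in Ronin knockout embryonic stem cells (ESCs) at places where the control cells had no anchor. An anchor of the knockout library was taken as knockout-only when it overlapped no anchor of the control library, from pairs within or between chromosomes, by even 1 bp. This gave 1741 knockout-only anchors among 17539 knockout anchors, and the other 15798 knockout anchors were shared with control cells. For comparison, 11714 of the 27757 control anchors overlapped no knockout anchor and are called control-only. The members were thus chosen by the contacts of the 2 libraries themselves, so the absence of control contacts at these places is a description and was not tested.

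The cells were mouse ESCs derived from blastocysts, with both copies of Ronin (Thap11) flanked by loxP sites and a tamoxifen-inducible CreERT2 recombinase. Control cells were given ethanol for 4 days and knockout cells tamoxifen for 4 days, and both groups carried the floxed allele and CreERT2. Each condition is 1 set of interactions that the authors merged from 2 experiments, so no spread between replicates exists and intervals below cover counting error only. The control set held 156097 PETs and the knockout set 65276, a ratio of 2.39, so that depth and condition cannot be told apart in the number of anchors. A tamoxifen effect without recombination and an effect of Ronin loss cannot be told apart in this design. The files hold contacts only, so neither loss of the Ronin protein nor RNA levels could be checked. All 10 ESC marker genes examined (Pou5f1, Sox2, Nanog, Klf4, Esrrb, Zfp42, Tdgf1, Lin28a, Dppa5a and Utf1) lay within 1 kb of an anchor in both libraries, with 795 control and 250 knockout PETs in sum, and none of them lay at a knockout-only anchor. The 4 fibroblast markers (Col1a1, Col1a2, Thy1 and Vim) had no anchor in either library.

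Ronin is a THAP-domain zinc finger protein that binds a conserved motif in the promoters of housekeeping genes, and in ESCs it is known for sustaining growth and self-renewal. Pol2 gathers at active promoters and, at a lower level, along gene bodies and at enhancers, so Pol2 anchors usually sit at gene starts and in transcribed genes. Where a DNA sequence occurs in several copies, as in satellite repeats, pseudogenes or clustered gene families, a short tag can match more than one place in the genome. The mates of each PET were mapped on their own, with at most 2 mismatches and only where a single best position existed.

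The PETs of the set were concentrated in very few pairs. The 2349 pairs carried 6501 PETs, 9.96% of the 65276 knockout PETs, and the 4 pairs with the most PETs carried 3338 of them (51.3%). Leaving out the 2 anchors with the most PETs left 2294 pairs with 2931 PETs. Leaving out the 15 with the most PETs left 2202 pairs with 2281 PETs, or close to 1 PET per pair.

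The highest count was in Chl1, a cell adhesion gene of the nervous system. The anchor chr6:103598781-103599724, 944 bp wide and overlapping an annotated exon of Chl1, had 2576 PETs to 42 partners, of which 1 PET stayed on chromosome 6. The nearest control anchor was 0.913 Mb away with 2 PETs. Of its PETs, 1512 went to chr2:98502008-98503246, 529 to chr2:98506273-98507612 and 496 to chr2:98504974-98505633, which lie at or beside the predicted genes Gm10800 and Gm10801. In control cells anchors overlapping these regions had 1317, 9614 and 65 PETs, all with other regions, since Chl1 had no control anchor. The second anchor, chr9:3023338-3023941 at the predicted gene Gm10718, had 994 PETs to 13 partners and joined chr2:98506273-98507612 by 801 of them. Its nearest control anchor, 20.7 kb away, had 4123 PETs, 3503 of them with chr2:98506240-98507615.

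The Gm10718 anchor was built of a repeated unit. Compared with itself at an offset of 234 bp it was 95.4% identical, and its first 2 units differed at 12 bases, shown in capitals below. Mouse major satellite DNA, the repeat of pericentromeric heterochromatin, is also known for a unit of 234 bp. The Chl1 anchor did not repeat itself in this way, reaching 32.8% identity at its best offset. The 2 units, from the plus strand of chromosome 9 in mm9, were:
Unit 1, chr9:3023338-3023571: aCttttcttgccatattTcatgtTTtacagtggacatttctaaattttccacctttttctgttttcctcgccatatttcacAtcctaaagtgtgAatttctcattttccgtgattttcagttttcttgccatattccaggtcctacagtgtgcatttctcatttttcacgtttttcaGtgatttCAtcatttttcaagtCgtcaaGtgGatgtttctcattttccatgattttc
Unit 2, chr9:3023572-3023805: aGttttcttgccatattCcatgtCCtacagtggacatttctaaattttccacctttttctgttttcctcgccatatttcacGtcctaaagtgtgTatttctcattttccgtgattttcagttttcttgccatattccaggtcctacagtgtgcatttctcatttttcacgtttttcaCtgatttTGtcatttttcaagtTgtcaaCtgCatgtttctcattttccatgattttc

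The anchors in the strongest pairs shared runs of identical sequence. The Chl1 anchor shared a run of 56 bp with the partner of 1512 PETs, of 77 bp with chr2:98506273-98507612 and of 74 bp with chr2:98504974-98505633. The longest run of the Gm10718 anchor with chr2:98506273-98507612 was 66 bp. The runs are given in capitals with 10 bases on either side in lower case, so that the end of identity can be seen:
Chl1 anchor, chr6:103599187-103599283, plus strand: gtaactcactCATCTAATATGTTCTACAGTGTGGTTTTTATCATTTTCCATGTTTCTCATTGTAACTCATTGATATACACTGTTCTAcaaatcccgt
Gm10800 anchor, chr2:98506446-98506542, plus strand: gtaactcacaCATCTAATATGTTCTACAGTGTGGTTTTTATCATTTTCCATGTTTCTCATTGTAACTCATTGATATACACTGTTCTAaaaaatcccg
Gm10718 anchor, chr9:3023622-3023707, plus strand: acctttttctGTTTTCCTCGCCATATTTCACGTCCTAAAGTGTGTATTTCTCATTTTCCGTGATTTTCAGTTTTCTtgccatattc
Gm10800 anchor, chr2:98507298-98507383, minus strand: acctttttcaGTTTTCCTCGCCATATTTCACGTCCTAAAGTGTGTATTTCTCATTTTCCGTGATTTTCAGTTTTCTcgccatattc

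The strongest pair within 1 chromosome joined 2 near-identical genes. Rnaset2a and Rnaset2b encode ribonuclease T2, a secreted and lysosomal RNase. The Rnaset2a anchor, chr17:8340071-8340997 within 1 kb of the gene's start, had 178 PETs, and 177 of them went to the Rnaset2b anchor chr17:7183375-7184473 at a distance of 1.16 Mb. Rnaset2a had no control anchor, while the Rnaset2b region had 2 control PETs. The shared run was 202 bp, on opposite strands, and lay in introns of both genes:
Rnaset2a anchor, chr17:8340066-8340287, plus strand: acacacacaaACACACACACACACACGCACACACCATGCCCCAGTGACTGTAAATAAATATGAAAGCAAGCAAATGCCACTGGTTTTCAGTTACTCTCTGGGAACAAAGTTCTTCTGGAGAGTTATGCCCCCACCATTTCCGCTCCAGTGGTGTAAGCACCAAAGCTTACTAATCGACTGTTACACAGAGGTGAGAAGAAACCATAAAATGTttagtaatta
Rnaset2b anchor, chr17:7183619-7183840, minus strand: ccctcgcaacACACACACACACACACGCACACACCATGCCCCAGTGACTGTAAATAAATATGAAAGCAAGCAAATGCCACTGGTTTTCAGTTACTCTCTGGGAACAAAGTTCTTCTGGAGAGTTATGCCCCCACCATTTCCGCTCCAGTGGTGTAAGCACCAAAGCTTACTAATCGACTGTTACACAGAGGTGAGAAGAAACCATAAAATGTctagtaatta
Where tags fell within the anchors is not given in the pair tables, so the assignment of tags to either gene was not tested.

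The next pairs had the same feature. An anchor without a gene, chr13:66515584-66516349, joined chr13:66811698-66813298, 0.297 Mb away, by all of its 77 PETs with a shared run of 110 bp. In an intron of Diap2, which encodes an actin-nucleating formin, the anchor chrX:126292436-126294373 joined an anchor on chromosome 8 that holds Jund, an AP-1 transcription factor gene, by 73 of its 74 PETs. The Diap2 anchor began 53 bp from a control anchor with 10 PETs, and the Jund region had 144 control PETs of which at most 2 went to any 1 partner. These runs were:
Chromosome 13 anchor, chr13:66515831-66515960, plus strand: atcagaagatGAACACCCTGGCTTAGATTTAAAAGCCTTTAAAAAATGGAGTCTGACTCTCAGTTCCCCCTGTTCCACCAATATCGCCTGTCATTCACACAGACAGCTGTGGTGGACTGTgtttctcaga
Its partner, chr13:66812357-66812486, plus strand: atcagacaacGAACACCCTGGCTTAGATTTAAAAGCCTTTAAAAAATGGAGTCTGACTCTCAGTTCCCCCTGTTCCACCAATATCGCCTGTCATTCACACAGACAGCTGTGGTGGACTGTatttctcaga
Diap2 anchor, chrX:126294110-126294263, plus strand: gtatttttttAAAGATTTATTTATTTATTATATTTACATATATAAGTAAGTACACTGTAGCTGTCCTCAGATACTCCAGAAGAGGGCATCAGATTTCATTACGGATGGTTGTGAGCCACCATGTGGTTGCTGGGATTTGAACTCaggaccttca
Jund anchor, chr8:73229610-73229763, plus strand: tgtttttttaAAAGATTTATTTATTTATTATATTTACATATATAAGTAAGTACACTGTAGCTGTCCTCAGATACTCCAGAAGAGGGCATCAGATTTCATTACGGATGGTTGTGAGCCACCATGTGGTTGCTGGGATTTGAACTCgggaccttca

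Across all pairs with a knockout-only anchor, the length of the shared run went together with the number of PETs. A run of at least 50 bp was present in 28 of the 30 pairs with 5 or more PETs (93.3%, interval 77.9 to 99.2), in 11 of the 28 pairs with 2 to 4 PETs (39.3%, interval 21.5 to 59.4) and in 197 of the 2291 pairs with 1 PET (8.6%, interval 7.48 to 9.82). The exceptions with 5 or more PETs were the pair of mitochondrial anchors described below and the pair of Rab8a with Zscan18, whose longest run was 42 bp and which is named after its values were seen. At 100 bp the shares were 46.7%, 28.6% and 1.48%. Pairs without a knockout-only anchor had such a run in 52% of those with 5 or more PETs, 13% of those with 2 to 4 and 1.62% of those with 1, and the intervals of both groups of pairs overlapped in each of these classes. The part of repeated sequence in these PET counts was not tested.

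**Figure D1:**
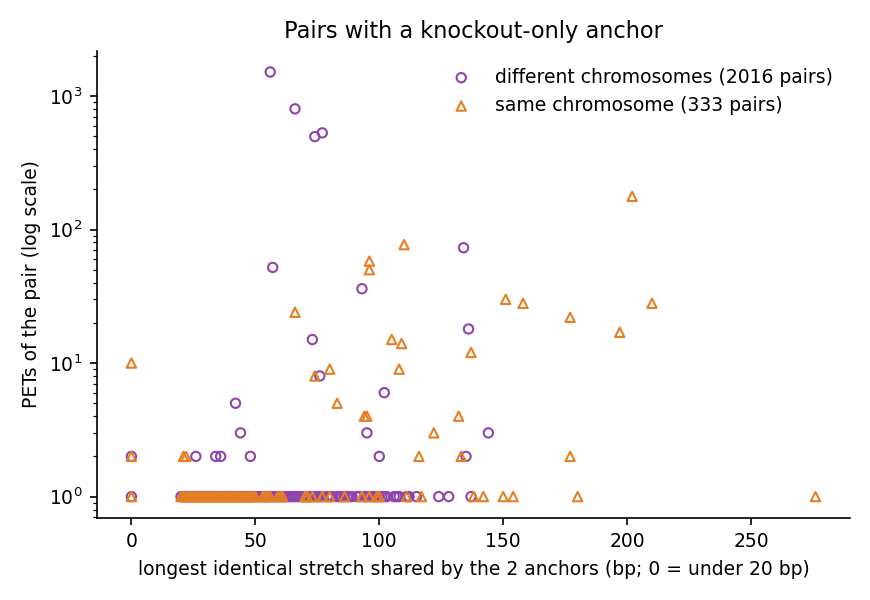
PETs of each pair (log axis) against the longest identical stretch of its 2 anchors (bp, 0 for under 20 bp) for the 2349 pairs with a knockout-only anchor, by whether both anchors are on the same chromosome. Nearly all pairs with 5 or more PETs lie at 50 bp or more, while pairs with 1 PET lie mostly at 0.

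Several members with many PETs lay in 2 multicopy loci. Between 65 and 69 Mb of chromosome 13, a stretch with clustered zinc finger genes, 13 of the 55 knockout anchors (23.6%, interval 13.2 to 37) were knockout-only, and 10 pairs within the stretch joined them by 170 PETs, 142 of these in pairs that shared a run of at least 100 bp. Control pairs inside the same stretch numbered 23 with 831 PETs. Between 140 and 150 Mb of chromosome 4, 22 of the 188 knockout anchors (11.7%, interval 7.48 to 17.2) were knockout-only, a share close to the 1741 of 17539 over the genome, and 12 internal pairs held 93 PETs. The anchor at the pseudogene Smarca5-ps, chr4:145056866-145058579 with 60 PETs, joined chr4:146652555-146653703 at 1.6 Mb by 30 PETs, the neighbouring chr4:146653798-146654368 by 14 PETs and chr4:145233779-145235023 in Gm13242 by 12 PETs. All 4 of these anchors were knockout-only, and their shared runs were 109 to 151 bp long. These windows were chosen after their values were seen.

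Elsewhere a knockout-only anchor stood next to a strong control contact. The Pisd-ps2 anchor on chromosome 17, a pseudogene of phosphatidylserine decarboxylase, joined the Pisd-ps1 anchor on chromosome 11 by 18 of its 19 PETs, while in control cells the Pisd-ps1 region joined chr17:3080479-3082948 by 934 PETs. Their shared run of 136 bp was:
Pisd-ps2 anchor, chr17:3083633-3083788, plus strand: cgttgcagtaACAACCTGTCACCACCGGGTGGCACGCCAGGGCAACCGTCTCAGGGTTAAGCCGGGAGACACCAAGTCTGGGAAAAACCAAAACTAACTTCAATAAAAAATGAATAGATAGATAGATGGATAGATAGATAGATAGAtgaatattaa
Pisd-ps1 anchor, chr11:3024309-3024464, minus strand: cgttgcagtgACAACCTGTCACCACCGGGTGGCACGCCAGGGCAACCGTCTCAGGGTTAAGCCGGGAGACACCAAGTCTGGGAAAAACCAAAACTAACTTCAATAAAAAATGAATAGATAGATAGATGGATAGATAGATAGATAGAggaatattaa
An anchor at 2610005L07Rik, chr8:20018440-20019087, had 55 PETs, of which 36 went to an anchor at Nsfl1c, a cofactor of the p97 ATPase, on chromosome 2 and 17 to chr8:19786390-19787494. Control contacts within 1 kb of both ends of the latter pair summed to 1054 PETs. Thus a pair with a knockout-only anchor could lie next to a pair that had many PETs in control cells. Whether both pairs record the same contact was not tested.

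Most knockout-only anchors were supported by a single contact. Of the 1741 anchors, 1310 (75.2%, exact 95% interval 73.1 to 77.3) had 1 PET, 323 (18.6%) had 2 PETs and 108 (6.2%) had 3 or more. Among shared knockout anchors 33.9% had 1 PET and 48.8% had 3 or more, and among control-only anchors 47.9% had 1 PET and 27% had 3 or more. The number of partners followed the same order, with 1333 knockout-only anchors (76.6%) joined to 1 other anchor and 12 (0.689%) joined to 5 or more. The range was wide. The median was 1 PET, yet 19 anchors had 10 or more and the highest had 2576.

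The knockout-only anchors were narrow. Their median width was 1485 bp (quartiles 1124 and 2102 bp, range 386 to 31047 bp), against 5470 bp in shared knockout anchors and 1887 bp in control-only anchors. Only 31 of the 1741 (1.78%) were 5 kb or wider, against 53.4% of the shared anchors. A wide anchor touches a control anchor more readily, so neither width nor PETs is independent of the rule.

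**Figure D2:**
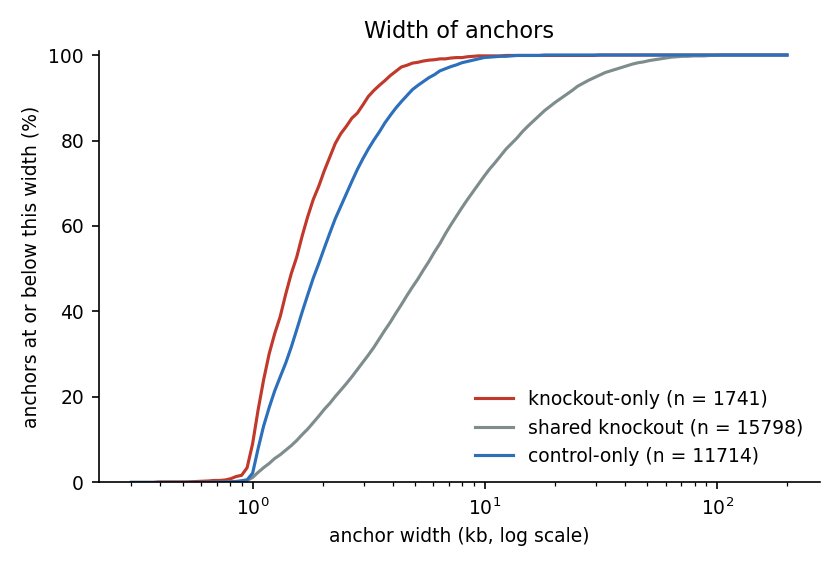
Share of anchors (%) at or below each width (kb, log axis) for knockout-only, shared knockout and control-only anchors. The knockout-only curve lies furthest to the left, with a median of 1485 bp, and the shared curve furthest to the right, with a median of 5470 bp.

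Many of these anchors lay beside a control anchor. The median distance to the nearest control anchor was 2330 bp (quartiles 486 and 11238 bp), with 614 anchors (35.3%) within 1 kb, 1092 (62.7%) within 5 kb and 1547 (88.9%) within 50 kb. Control-only anchors were further from the nearest knockout anchor, at a median of 8624 bp, with 38.1% within 5 kb. The knockout library held fewer anchors to be near to, so these distances are not on equal terms. Within the knockout library itself, 891 knockout-only anchors (51.2%) lay within 5 kb of a shared anchor. At the other end, 130 had no control anchor within 100 kb and 4 had none within 1 Mb.

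**Figure D3:**
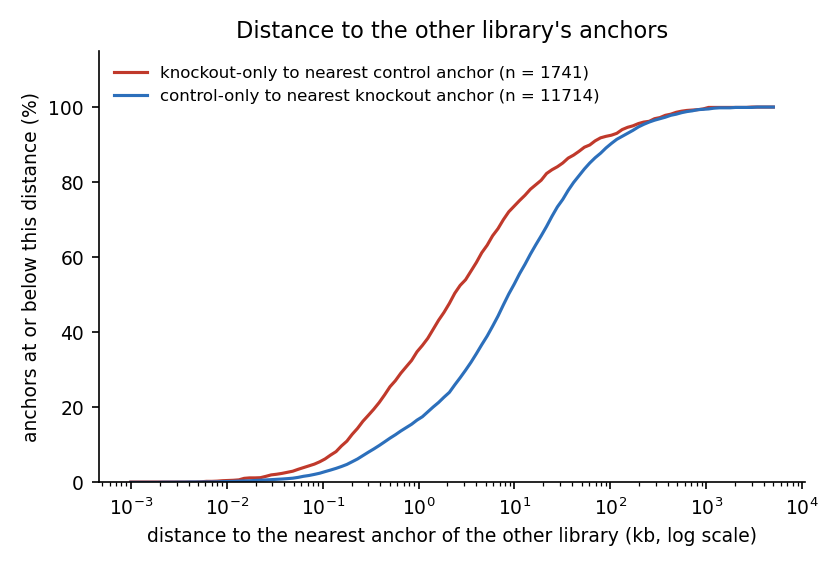
Share of anchors (%) at or below each distance (kb, log axis) to the nearest anchor of the other library, for the 1741 knockout-only and the 11714 control-only anchors. Within 5 kb lay 62.7% of the knockout-only and 38.1% of the control-only anchors.

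At the boundary of the rule, values changed from inside to outside by a few bp. The 5 knockout-only anchors nearest to a control anchor were 0 to 6 bp away. They lay at chr9:56379627-56381437 (mm9) with no gene, in Adam23, at Pisd-ps2, in Atxn10 and in Zmynd8. Of these, 4 had 1 PET each and the Pisd-ps2 anchor had 19 PETs. Just outside the rule, with an overlap of 2 to 4 bp, knockout anchors at Nck1, Scg5, Rpn1 and Zmym4 also had 1 PET each.

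Some contacts had a counterpart next door in control cells. Of the 2349 pairs holding a knockout-only anchor, 54 (2.3%, interval 1.73 to 2.99) had a control contact between anchors within 5 kb of both ends, and 38 of these were among the 333 pairs within 1 chromosome (11.4%, interval 8.2 to 15.3). For pairs without a knockout-only anchor, a control contact between the overlapping anchors was found for 4.15% of all and for 12.8% of those within 1 chromosome, at a distance of 0 bp. By the rule, no pair with a knockout-only anchor can have a control contact at 0 bp, so both groups were counted at unlike distances. Within 1 kb of both ends, a control contact was found for 1.02% of the pairs with a knockout-only anchor. Among those within 1 chromosome the share was 5.11%. Most pairs without a knockout-only anchor had no control contact between the overlapping anchors.

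The anchor with the most partners was mitochondrial. The anchor chrM:10853-16130 covered mt-Nd5, mt-Nd6 and mt-Cytb, overlapped mt-Nd4 and lay within 1 kb of mt-Nd4l, which encode subunits of respiratory complexes I and III, and had 68 PETs to 59 partners. The other knockout anchor on the mitochondrial genome, chrM:4-6552, was shared and had 54 PETs, and the only control anchor there, chrM:2-6535, had 156 PETs to 155 partners. Both mitochondrial anchors of the knockout joined each other by 10 PETs, without a shared run of 20 bp. All other partners of the knockout-only mitochondrial anchor were nuclear, with 1 PET each. Mitochondrial DNA lies outside the nucleus, so these PETs cannot be read as contacts within it. What they record was not tested.

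Among nuclear genes outside such repeats, Copg had the most partners. Copg encodes the gamma subunit of the COPI coat, which carries proteins back from the Golgi to the endoplasmic reticulum. Its knockout-only anchor chr6:87836396-87847845, 11450 bp wide, began upstream of the gene start and had 12 PETs to 12 partners, each by 1 PET. Only the contact with Rpn1, an oligosaccharyltransferase subunit gene 0.194 Mb away, stayed on chromosome 6. The partners on other chromosomes included anchors without a gene and chr9:3001940-3002485 at Gm10722, which shared a run of 96 bp with the Gm10718 anchor. Others were at Arid1a, Cdk9, Ubb, Capzb, Larp4, Anapc10 and Malat1. The nearest control anchor, 8.03 kb away and covering the 3' end of the gene, had 14 PETs, and the whole gene had 14 control and 23 knockout PETs. Qk, an RNA-binding protein gene, had an intronic member with 5 partners, and Gas8, a subunit of the dynein regulatory complex in cilia, an anchor at its start with 5 partners, chosen after its values were seen. The widest member, 31047 bp in 2210018M11Rik on chromosome 7, had 3 PETs. With 1 PET per pair, none of these contacts was seen again within the library.

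Contacts of knockout-only anchors mostly reached another chromosome and a shared anchor. Between chromosomes lay 2016 of the 2349 pairs (85.8%, interval 84.3 to 87.2) with 5575 of the 6501 PETs (85.8%), against 88.8% of the pairs and 80.9% of the PETs without a knockout-only anchor. Without the 2 anchors with the most PETs, the share of PETs between chromosomes was 72.9%. The partner was knockout-only too in 44 pairs (1.87%, interval 1.36 to 2.51) with 106 PETs. The 1832 shared anchors that served as partners were wide and well linked, with a median width of 14325 bp and a median of 9 PETs, against 4974 bp and 2 PETs for the 13966 shared anchors that did not. A gene start lay within 1 kb of 74.7% of the former and of 51% of the latter. An anchor with many PETs has more chances to be a partner, so these medians do not show a preference. A gene start lay within 1 kb of both anchors in 475 pairs with a knockout-only anchor (20.2%, interval 18.6 to 21.9) and in 61.4% of the other knockout pairs.

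Within chromosomes the median distance of the contacts differed between pairs seen once and pairs seen more often. The 333 pairs had a median distance of 0.478 Mb between midpoints, against 5.35 Mb for the 4704 pairs without a knockout-only anchor. Under 20 kb lay 58 pairs (17.4%, interval 13.5 to 21.9) against 7.95% of the others, and over 10 Mb lay 109 pairs (32.7%, interval 27.7 to 38.1) against 45.2%. For pairs with 1 PET alone the medians were 0.535 and 7.72 Mb. For pairs with 2 or more PETs the order turned, with 0.335 Mb over 29 pairs against 0.173 Mb over 322 pairs. Their quartiles overlapped widely, at 86.9 and 1084 kb against 44.3 and 1231 kb. Most of the 29 pairs also shared a run of at least 50 bp, and its part in their distance was not tested. The differences in the shares under 20 kb and over 10 Mb were larger than the counting intervals, and no test was made with 1 library per condition. By the authors' own test within the knockout library, 332 of the 333 pairs (99.7%) had an adjusted p-value under 0.05 (Benjamini-Hochberg, hypergeometric test), where the background over all knockout pairs within chromosomes was 97.9%. Between chromosomes 96.8% of the pairs with a knockout-only anchor passed against a background of 96.7%. Both shares were near the background. Passing this test is not the paper's stated definition of a high-confidence interaction, which asked for 3 independent PETs. Yet the paper's number of Pol2 interactions after knockout was close to the 4931 knockout pairs within chromosomes that passed. Only 29 and 322 of the pairs within chromosomes had 2 or more PETs, so that number cannot have been limited to 3 PETs. Of the 2349 pairs with a knockout-only anchor, 2291 (97.5%) had 1 PET and fell short of 3 PETs, as did the pairs with 2 PETs. For its Ronin contacts, the paper also set pairs between chromosomes aside, citing reports of more noise. Such pairs were 2016 of the 2349 (85.8%) here.

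Most knockout-only anchors lay at a protein-coding gene. A gene of the GENCODE vM1 annotation lay within 1 kb of 1305 of the 1741 (75%, interval 72.9 to 77), against 83.5% of shared knockout anchors and 74.5% of control-only anchors. By position, 684 (39.3%) overlapped an exon, 562 (32.3%) lay inside a gene without touching an exon, and 495 (28.4%) lay outside protein-coding genes. A gene start lay within 1 kb of 379 (21.8%, interval 19.9 to 23.8), against 53.7% of shared and 18.3% of control-only anchors. The difference from shared anchors varied with width. Among anchors of 1 to 1.5 kb the shares were 18.2% (interval 15.5 to 21.2) and 19.4% (interval 17.3 to 21.7) for knockout-only and shared anchors, whose intervals overlapped. From 3 to 5 kb they were 31.6% (interval 24.7 to 39.1) and 45% (interval 43.2 to 46.8), and at 5 kb and over 10 of 31 against 70.8%. Control-only anchors were lower than knockout-only anchors from 1 to 1.5 kb, with 13.2% (interval 12.1 to 14.4). They were also lower from 1.5 to 2 kb, with 18.2% (interval 16.7 to 19.9) against 24.7% (interval 20.3 to 29.4). From 3 to 5 kb they had 22.5% (interval 20.6 to 24.4), and in the other width classes the intervals of these sets overlapped. GC content hardly differed, with medians of 45%, 45.5% and 43.7% in the knockout-only, shared and control-only anchors.

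**Figure D4:**
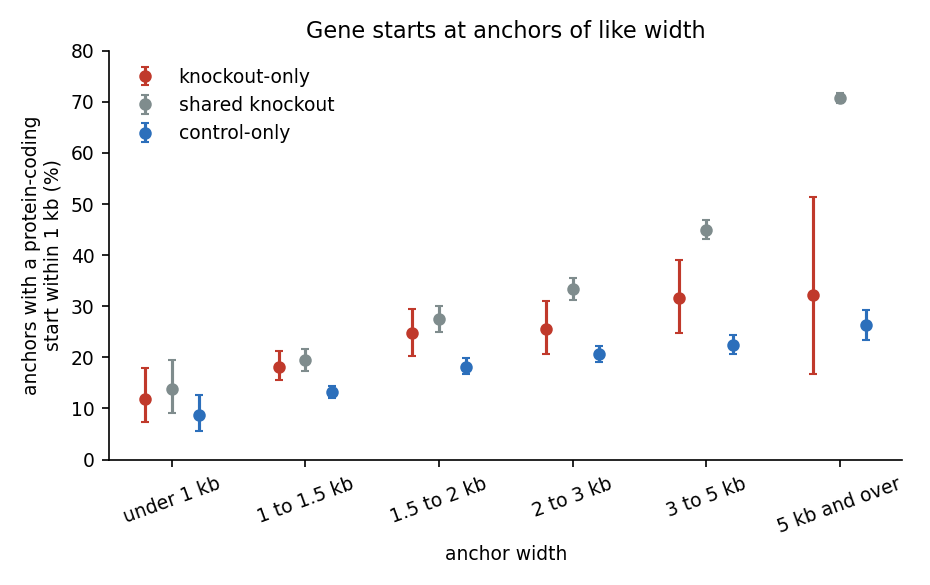
Share of anchors (%) with a protein-coding gene start within 1 kb, by anchor width, for the 3 sets of anchors, with exact 95% intervals that cover counting error only. The intervals of knockout-only and shared anchors overlap under 2 kb and are separate from 2 kb on.

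Most of these genes also had an anchor in control cells. The members lay at 1221 protein-coding genes, of which 1001 (82%) also had a control anchor elsewhere within the gene or its 1 kb margin, and 918 (75.2%) a shared knockout anchor. No control anchor was found for 220 of the 1221, against 247 of all 11350 genes with a knockout anchor, and these 247 hold the 220. The rule removes anchors that touch a control anchor, so this difference is a description. Of the 1305 members with a gene, 1118 (85.7%) lay at such a gene, at a median of 1.44 kb from the nearest control anchor, and 21.3% of these had a gene start within 1 kb. The other 187 members, whose genes had no control anchor at all, lay at a median of 49 kb and had a start within 1 kb in 141 cases (75.4%, interval 68.6 to 81.4). The mirror set of control-only anchors gave 63.6% and 17.2% for the same 2 groups, so that the division was present in both sets.

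In all, 220 genes at knockout-only anchors had no control anchor. Of these, 135 had 1 knockout PET and 36 had 3 or more. Besides the repeat and mitochondrial genes above, the higher counts, named after their values were seen, were small. Gas8 had 6 knockout PETs, Ubl7, a ubiquitin-like protein gene, 5, and Hkdc1, a hexokinase-like gene, 5. Genes with 4 PETs included Bdkrb2, the bradykinin B2 receptor, Galt of galactose metabolism, Nppc, which encodes C-type natriuretic peptide, Ogfr, the opioid growth factor receptor, and Rab15, a small GTPase of endosomes. Med12, a subunit of the Mediator kinase module, Il17ra, the interleukin 17 receptor, and Ippk, an inositol phosphate kinase, had 3 PETs each. A control anchor could still be close by, at 393 bp from a Gas8 anchor and 684 bp from that of Hkdc1, on the side away from the gene. All of these counts stood against 0 in the larger control set, yet a count of 3 to 6 PETs in 1 library has no measured spread.

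Of the 12 genes named by the study for their contacts that had a knockout anchor, 2 lay at a knockout-only anchor (16.7%, interval 2.09 to 48.4), against 10.8% over all protein-coding genes with a knockout anchor. Both also had control anchors. Fntb, the beta subunit of protein farnesyltransferase, held 3 members with 7 PETs within a gene of 156 kb that had 27 control and 24 knockout PETs. Its member with the most PETs, chr12:77918707-77921178, lay inside both Fntb and Rab15 and had 4 partners. Gpbp1l1 held 1 member with 1 PET, 86 bp from a control anchor, in a gene with 226 control and 68 knockout PETs.

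The gene lists differed in how many of their genes lay at knockout-only anchors, and the intervals of most included the share over all genes. Over all protein-coding genes with a knockout anchor, 1221 of 11350 (10.8%) lay at a knockout-only anchor. None of the 79 cytosolic ribosomal protein genes (interval 0 to 4.56%), 76 splicing factor genes (interval 0 to 4.74%), 60 replication-dependent histone genes (interval 0 to 5.96%) or 8 THAP family genes (interval 0 to 36.9%) with a knockout anchor did so. The respiratory chain and ATP synthase, mitochondrially encoded genes not counted, had 3 of 84 (3.57%, interval 0.743 to 10.1). Intervals that included 10.8% were those of translation factors with 2 of 62 (0.393 to 11.2%), tRNA synthetases with 2 of 36 (0.68 to 18.7%), the proteasome with 3 of 46 (1.37 to 17.9%), glycolysis and the citric acid cycle with 2 of 40 (0.611 to 16.9%), and the mitochondrial ribosome with 6 of 75 (2.99 to 16.6%). The share was larger in longer genes, from 4.31% (interval 3.64 to 5.08) of genes under 10 kb to 18.9% (interval 16.8 to 21.1) of genes of 100 kb and over, and the part of gene length in the lists was not tested. Cytosolic ribosomal protein genes had a median length of 3.23 kb, against 21.3 kb over all genes.

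The members in these lists were single genes with few PETs. Mrpl14, of the large subunit of the mitochondrial ribosome, had 3 PETs at its start against 1 control PET, Mrps15 2 PETs at its start and Mrps5 2 PETs in its body. Ndufa8, a complex I subunit gene, had 2 knockout PETs and no control PET, and its member at the gene start was 78.1 kb from a control anchor. Ndufv3, another complex I gene, had 4 PETs at 2 members in a gene with 20 control and 12 knockout PETs. Psmd10, which encodes gankyrin, an assembly chaperone of the proteasome, had 1 PET at a start shared with Atg4a and no control PET. Farsb, Hars, Eif3l, Eef2k and Dlst each had 1 PET at a member, and Gpi1, phosphoglucose isomerase, had 2.

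**Figure D5:**
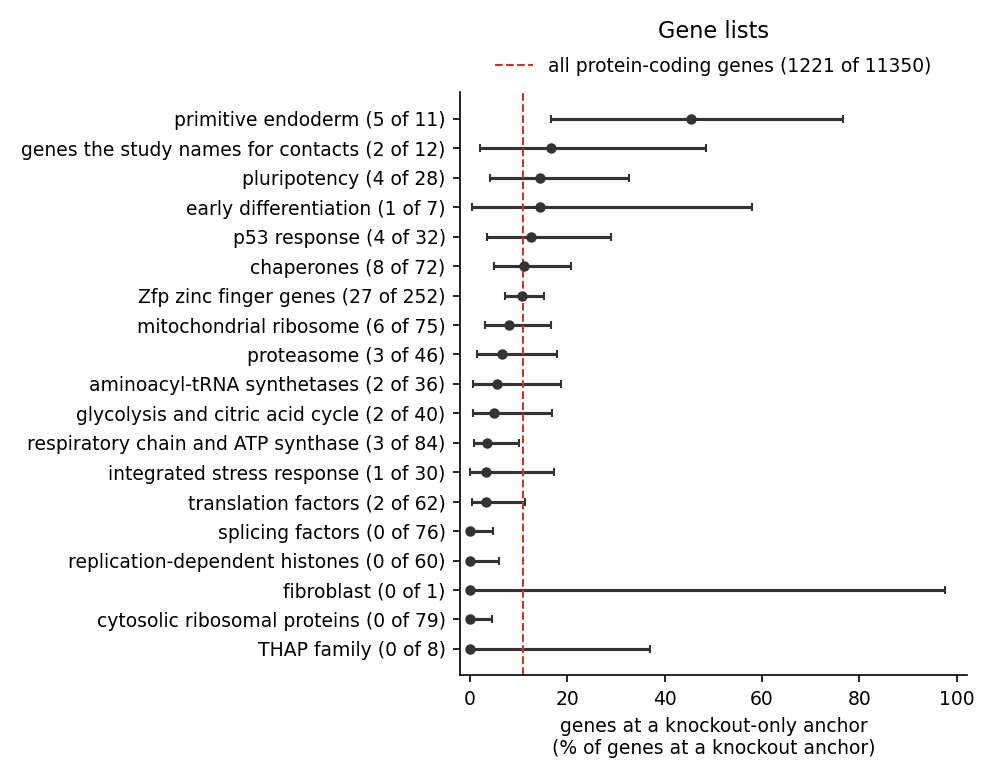
Share of genes with a knockout anchor (%) that lie within 1 kb of a knockout-only anchor, for each of 19 gene lists, with exact 95% intervals that cover counting error only and the counts beside each name. The dashed line is the 10.8% over all protein-coding genes, and the intervals of most lists include it.

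The intervals of the zinc finger, chaperone, p53, pluripotency and stress response lists included the share over all genes. The Zfp zinc finger genes had 27 of 252 (10.7%), with Zfp273 at 5 PETs and Zfp808 at 3, and 26 of the 27 also had a control anchor. Chaperones had 8 of 72 (11.1%), p53 response genes 4 of 32 (12.5%) with Polk, Trp53bp1 and Xpc, all of DNA repair or damage tolerance, and pluripotency genes 4 of 28 (14.3%). In the last group Dppa2, an early embryonic chromatin factor, had 3 PETs at a start anchor 3.72 kb from a control anchor. Stat3, the effector of LIF signalling, had 2 PETs at a member in its body, in a gene with 14 control and 4 knockout PETs. Dnmt3b, a de novo DNA methyltransferase and also the 1 of 7 genes of the early differentiation list at a member, had its only knockout PET at a member, with 2 control PETs elsewhere in the gene. The fibroblast list had 1 gene with a knockout anchor, and it did not lie at a member. In the integrated stress response, 1 of 30 genes (3.33%, interval 0.0844 to 17.2) lay at a member. That gene was Slc7a11, the cystine and glutamate antiporter, whose start anchor chr3:50246516-50248325 had 2 PETs, no control PET in the gene, and no control anchor within 682 kb.

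The list with the largest share was primitive endoderm, the first endoderm of the embryo, with 5 of 11 genes (45.5%, interval 16.7 to 76.6). Of these 5, 4 also had a control anchor. The interval counts genes as independent, while Col4a1 and Col4a2 lie side by side on chromosome 8. The median gene length was 72.8 kb in this list, against 21.3 kb over all genes. Col4a2 and Col4a1, the chains of basement membrane collagen IV, held 4 members with 6 PETs and 2 members with 2 PETs, and Lama1, a laminin chain, held 3 members with 3 PETs. The member with the most PETs in each lay in the gene body, not within 1 kb of the start, and the genes are 136, 114 and 125 kb long, in the length class with the largest share. Counted over the gene, Col4a2 had 12 control and 16 knockout PETs, Col4a1 48 and 25, and Lama1 37 and 18. Sox17, the marker transcription factor of endoderm, had 1 knockout PET at a member and no control PET, and Sox7 had no knockout anchor. Of the 4 endoderm markers Gata4, Gata6, Sox17 and Sox7, 2 had a control anchor, with 3 PETs in sum, and 3 a knockout anchor, with 6 PETs. Over the whole list of 15 genes, 12 had a control anchor and 11 a knockout anchor, with 154 control and 95 knockout PETs. The number of cells of a type and the contacts per cell cannot be told apart in these data.

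The Ronin-binding motif was rare in the set. The search used exact copies on both strands of mm9, and a shorter core of the motif, GGGA and TGTAGT with any 2 bases between, was searched as well, so that every copy of the motif also counts as the core. The full motif was found in 4 of 1741 knockout-only anchors (0.23%, interval 0.0626 to 0.587), in 1.46% of shared knockout anchors (interval 1.28 to 1.66) and in 0.47% of control-only anchors. The core was found in 10 (0.574%, interval 0.276 to 1.05), 5.06% and 1.55%. Per Mb of anchor sequence the core had 3.11, 6.44 and 7.19 copies. The full motif had 1.25, 1.68 and 2.09 copies per Mb, the first of these from 4 copies. Among anchors of 1 to 1.5 kb the full motif was found in 0.276% of knockout-only anchors (interval 0.0334 to 0.993). The shares were 0.56% of shared (interval 0.225 to 1.15) and 0.219% of control-only anchors (interval 0.0948 to 0.432), and these intervals overlap. Among anchors of 1 to 1.5 kb the core was found in 0.414% of knockout-only (interval 0.0854 to 1.2) and 1.12% of shared anchors (interval 0.614 to 1.87), whose intervals overlap. A match describes the sequence and does not show binding, and the anchors named for a copy were named after the search.

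The copies in knockout-only anchors mostly lay just upstream of a gene start. Of the 10 anchors with the core, 7 had a copy within 300 bp of a start (70%, interval 34.8 to 93.3), against 58.8% of shared and 48.9% of control-only anchors with the core. In the full motif set, the copy lay 21 bp upstream of the start of Rg9mtd3, a tRNA methyltransferase gene, 62 bp upstream of Tcfeb, the transcription factor of lysosome biogenesis, and 286 bp upstream of Wwox, an oxidoreductase gene. The fourth copy lay in the Pisd-ps2 anchor, 31057 bp from a protein-coding start. The Rg9mtd3 and Tcfeb anchors had 2 PETs and 2 partners each and Wwox had 1 PET. Both Rg9mtd3 and Tcfeb also had control anchors, while Wwox had none. Counted over the gene, Rg9mtd3 had 13 control and 5 knockout PETs, and Tcfeb 27 and 4. The copies are shown in capitals on the strand that carries the motif:
Rg9mtd3, chr4:45309951-45310005, minus strand: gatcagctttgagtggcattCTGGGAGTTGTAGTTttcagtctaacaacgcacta
Tcfeb, chr17:47873890-47873944, minus strand: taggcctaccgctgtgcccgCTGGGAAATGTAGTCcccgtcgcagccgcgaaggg
Wwox, chr8:116963242-116963296, minus strand: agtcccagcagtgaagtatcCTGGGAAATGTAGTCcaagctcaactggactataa
Pisd-ps2, chr17:3083888-3083942, minus strand: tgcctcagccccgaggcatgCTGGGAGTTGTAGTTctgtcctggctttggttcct

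Copies of the core alone lay 15 to 119 bp upstream of the starts of Atg4a, an autophagy protease gene, Zfp354c, Med27, a Mediator subunit gene, and Zscan2. Those in Cflar, an inhibitor of caspase 8, and Gabpb2, a subunit of the GABP transcription factor, lay 7265 and 3121 bp from the nearest start. Zscan2 had 3 PETs to 3 partners and no control PET, and the other 5 had 1 or 2 PETs. The 4 copies near a start, with the core in capitals, were:
Atg4a, chrX:137491405-137491456, minus strand: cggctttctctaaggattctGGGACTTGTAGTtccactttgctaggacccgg
Zfp354c, chr11:50641246-50641297, minus strand: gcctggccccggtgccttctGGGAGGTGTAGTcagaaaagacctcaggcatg
Med27, chr2:29202247-29202298, minus strand: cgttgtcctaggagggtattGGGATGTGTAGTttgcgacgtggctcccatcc
Zscan2, chr7:88005661-88005712, minus strand: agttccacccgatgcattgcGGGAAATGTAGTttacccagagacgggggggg

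Knockout-only anchors occurred on every chromosome with knockout anchors. Their share of the knockout anchors ranged from 7.82% on the X chromosome to 11.6% on chromosome 14 among the nuclear chromosomes, and the exact intervals of all of these overlapped. Members more than 5 kb from any control anchor, 649 in number, were like the rest in width, with medians of 1487 and 1484 bp, and 71.6% of them had 1 PET. They differed in position, since a gene start lay within 1 kb of 33.4% (interval 29.8 to 37.2) against 14.8% (interval 12.8 to 17.1) of the members within 5 kb, while a gene of any type was absent from 28.2% against 17.9%. Of the 5 members with 3 or more PETs that lay furthest from a control anchor, Chl1 is described above. The others were chr4:72339287-72340264 with 16 PETs, of which 15 went to an Abcb1a anchor with a shared run of 73 bp, an intronic member in Aff2 on the X chromosome with 3 PETs, chr4:24118452-24121146 with 3 PETs, and chr13:65827278-65828179 with 10 PETs.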

How the data were processed

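Pol2 ChIA-PET (antibody 8WG16) was analysed in 1 control and 1 Ronin knockout set of interactions, each merged by the authors from 2 experiments. Per the submitters' notes and the study's methods, linkers were trimmed with cutadapt, mates were mapped singly to mm9 with Bowtie 1.1.1, peaks were called with MACS 1.4.2, and PETs under 4 kb within a chromosome were removed. The deposited PET counts are whole-number counts per pair of peaks, not normalised. The authors also deposited hypergeometric p-values with Benjamini-Hochberg adjustment, which were used at 0.05, and a signed distance score per pair, which was not used because it is also filled in between chromosomes. A pair is listed only where at least 1 PET joined called peaks, so a place without an anchor gives no upper limit.

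Anchors were the distinct intervals at either end of all pairs, and an overlap of 1 bp made an anchor shared. Each anchor was given the GENCODE vM1 protein-coding genes that lay up to 1 kb away, and 19 gene lists were counted. Identical runs were found from 20-base words on both strands of mm9. Anchor sequences and motif copies were read from mm9. Shares carry exact (Clopper-Pearson) 95% intervals, which cover counting error only, since each condition is 1 merged set. With 1 set per condition no test was made. The text names the 15 anchors and 10 pairs with the most PETs, the 10 anchors with the most partners, the 5 widest, the 5 furthest from a control anchor with at least 3 PETs, the 5 on either side of the overlap boundary, and up to 3 genes per list by PETs. Some items that meet this rule are not reported here. Names outside this rule are said to have been chosen after their values were seen. The members and lists were chosen with earlier results of these data known. The functions were tested on simulated data. Python 3.11.15, numpy 2.4.6, pandas 2.3.3, scipy 1.17.1, pysam 0.24.0 and samtools 1.23.1 were used.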

Additional observations from a re-analysis of the deposited data

How the results depend on the processing

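Of 30 alternatives, 17 left the value within its interval or, for a count, within 1.5 times. The number of knockout-only anchors was 1741. It was 649 with control anchors extended by 5 kb, 431 with at least 2 PETs and 108 with at least 3 PETs. The share with a protein-coding gene within 1 kb was 75%. It was 71.6% where the gene had to overlap, 78.9% within 2500 bp, 21.8% for a gene start within 1 kb and 68.4% for anchors over 5 kb from a control anchor. The median width was 1819 bp with at least 2 PETs, against 1485 bp. The share of PETs between chromosomes moved from 85.8% to 92% without pairs whose anchors had an identical run of 100 bp or more and to 72.9% without the 2 anchors with the most PETs, an alternative chosen after seeing the data. The share of pairs whose other anchor was knockout-only moved from 1.87% to 3.6% within chromosomes. The median distance was 1664 kb for anchors over 5 kb from a control anchor, against 478 kb. Genes joined in knockout cells only numbered 110 with at least 2 PETs, against 247. The cause of these changes was not tested beyond the fewer anchors, pairs or genes that each alternative keeps. No paired analysis was possible because each condition is 1 merged set and the results come from no test, and for the same reason no replicate could be left out. The control set held 2.39 times the PETs of the knockout set, so depth and the knockout cannot be told apart.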
